A study of Mus musculus with 5 samples.

Results

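Nfkbiz, Cebpb, Cebpd and Lcn2 were taken as 3 regulators and a target gene, and every probe set that the platform annotation assigned to one of them was kept. This gave 6 probe sets for 4 genes, out of 3373 probe sets and 2190 named genes in the deposited table. Nfkbiz and Cebpb had 2 probe sets each, and Cebpd and Lcn2 had 1 each. The 2 co-culture arrays held RNA of primary mouse bone marrow mesenchymal stem cells (MSC) that had shared a transwell for 48 h with a 10-fold number of purified T cells, stimulated beforehand in vitro with antibodies to CD3 and CD28. The 3 other arrays held RNA of the same kind of MSC without T cells. A transwell membrane separates the cell populations and lets soluble products through. Strain, age and any pooling of animals were not given in the sources used here, and the labels call every array a separate biological repetition. Values are log2 expression from RMA, which normalises the arrays to one another and gives 1 value per probe set.

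Nfkbiz encodes IkappaBzeta, a nuclear member of the IkappaB family. The classical IkappaB proteins hold NF-kB in the cytoplasm. IkappaBzeta is itself induced by inflammatory signals, binds NF-kB on chromatin and is needed for a later wave of genes in mice, Lcn2 among them. Cebpb and Cebpd encode C/EBPbeta and C/EBPdelta, leucine zipper transcription factors that inflammatory cytokines induce in stromal cells and that act with NF-kB and IkappaBzeta at acute-phase genes. Lcn2 encodes lipocalin-2, a secreted protein that binds bacterial siderophores and so withholds iron from bacteria. It is made by many stromal and epithelial cells under inflammation and is stored in neutrophil granules.

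The sequence before the start site of Lcn2 is shown because C/EBP factors and NF-kB are known to act at the promoter of this target gene. The 250 bases before its start in RefSeq (build GRCm38.p6, chr2:32387740-32387989, minus strand) follow in the direction of transcription, with the match to a C/EBP motif in capitals.
Lcn2 promoter: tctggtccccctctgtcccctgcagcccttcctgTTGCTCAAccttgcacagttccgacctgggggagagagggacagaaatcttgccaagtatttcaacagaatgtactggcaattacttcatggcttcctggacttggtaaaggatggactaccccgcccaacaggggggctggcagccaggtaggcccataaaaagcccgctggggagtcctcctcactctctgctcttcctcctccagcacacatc
Each window was searched on both strands for the C/EBP motif TTGCNNAA, the STAT motif TTCNNNGAA and the NF-kB consensus decamer. The Lcn2 window held 1 match, TTGCTCAA, at bases 35 to 42, which begins at position -216 from the start. A C/EBP match occurred in 9.56% of the 32851 windows of this length in the RefSeq table, a STAT match in 7.02% and an NF-kB match in 7.25%. Matches are descriptions of letters and not binding sites. The Cebpb window, the other one of the 4 genes in the table, is 81.6% G and C against 56.4% for Lcn2, and held none of these 3 motifs.

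Co-cultured MSC had more RNA of all 4 genes than MSC grown without T cells, by all 6 probe sets. Lcn2 rose 20.6-fold, Nfkbiz 5.21-fold and 7.85-fold by its 2 probe sets, Cebpd 4.57-fold, and Cebpb 2.72-fold and 3.34-fold. In limma's linear model over the whole table, with Benjamini-Hochberg adjustment, the adjusted p lay between 0.000285 for Lcn2 and 0.00785 for the brighter Cebpb probe set. These calls carry little weight by themselves: 100% of the probe sets in the table passed the same threshold, in either direction, and in 100% the 2 groups of arrays did not overlap, so the table appears to hold only probe sets already selected on this comparison. Of all probe sets 48.7% passed with higher values in co-culture, and 48.3% of the named genes did. A change of at least 2 on the log2 scale upward was found in 7.62% of the probe sets, and Lcn2, Cebpd and both Nfkbiz probe sets were among them. Such a selection favours large differences with a small spread, and the sizes and errors below should be read with that in mind.

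Nfkbiz was bright on every array. Its brighter probe set, 1417483_at, read 11.67 and 11.78 in co-culture replicates 1 and 2, against 9.52, 9.69 and 8.82 in MSC alone replicates 1, 2 and 3. Both co-culture arrays lay above all arrays of MSC alone, and replicate 3 of MSC alone was the lowest. The difference was 2.38 ± 0.29 (SE) on the log2 scale, with a 95% interval of 1.68 to 3.09 and an adjusted p of 0.00227 in limma. The other probe set, 1448728_a_at, read 10.70 and 10.97 in co-culture, against 7.96, 8.20 and 7.43 in MSC alone. It showed the same order of arrays in each group and a difference of 2.97 ± 0.27 (SE; adjusted p 0.00118 in limma). Both probe sets are annotated with the same transcript record, so they are repeat readings of 1 RNA and not separate evidence. Their intervals overlapped, the second reaching from 2.31 to 3.63.

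Cebpd read 10.575 and 10.643 in co-culture, against 8.27, 8.63 and 8.35 in MSC alone (probe set 1423233_at). The co-culture arrays were nearly level, and the gap between the nearest arrays of the 2 groups, 1.95, was much larger than the range among the arrays of MSC alone, 0.361. The difference was 2.19 ± 0.19 (SE), with a 95% interval of 1.73 to 2.66 and an adjusted p of 0.00112 in limma. This was the smallest standard error of the 6 probe sets.

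Cebpb had the smallest rise and was already at a high value in MSC alone. Its brighter probe set, 1418901_at, read 11.90 and 12.49 in co-culture, against 10.78, 11.215 and 10.25 in MSC alone. The groups did not overlap, but the gap between the nearest arrays, 0.68, was smaller than the range of 0.966 within MSC alone. The difference was 1.44 ± 0.34 (SE), with a 95% interval of 0.623 to 2.26 and an adjusted p of 0.00785 in limma. The probe set 1427844_a_at read 10.86 and 11.60 in co-culture, against 9.37, 9.905 and 9.19 in MSC alone, a difference of 1.74 ± 0.32 (SE; adjusted p 0.00521 in limma). Here the gap of 0.951 was somewhat larger than the range within MSC alone, 0.719. Among the 1642 probe sets that were higher in co-culture, the sizes of the rises of the Cebpb probe sets ranked 342 and 483, those of Nfkbiz 90 and 165, and that of Cebpd 209.

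Lcn2, the target gene, was near the bottom of the table in MSC alone and in the middle of it in co-culture. Its probe set 1427747_a_at read 7.31 and 7.83 in co-culture, against 3.31, 2.95 and 3.35 in MSC alone. The gap between the nearest arrays of the 2 groups was 3.96, while the arrays of MSC alone spanned 0.399. The difference was 4.36 ± 0.24 (SE), with a 95% interval of 3.78 to 4.95 and an adjusted p of 0.000285 in limma, and it ranked 27 among the 1642 rising probe sets. The lowest value anywhere in the table was 2.62, so the values of MSC alone lay close to the lower end of the scale, where RMA compresses differences. Without a detection call it is not known whether Lcn2 RNA was detected in MSC alone, and the fold is uncertain for that reason.

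**Figure D1:**
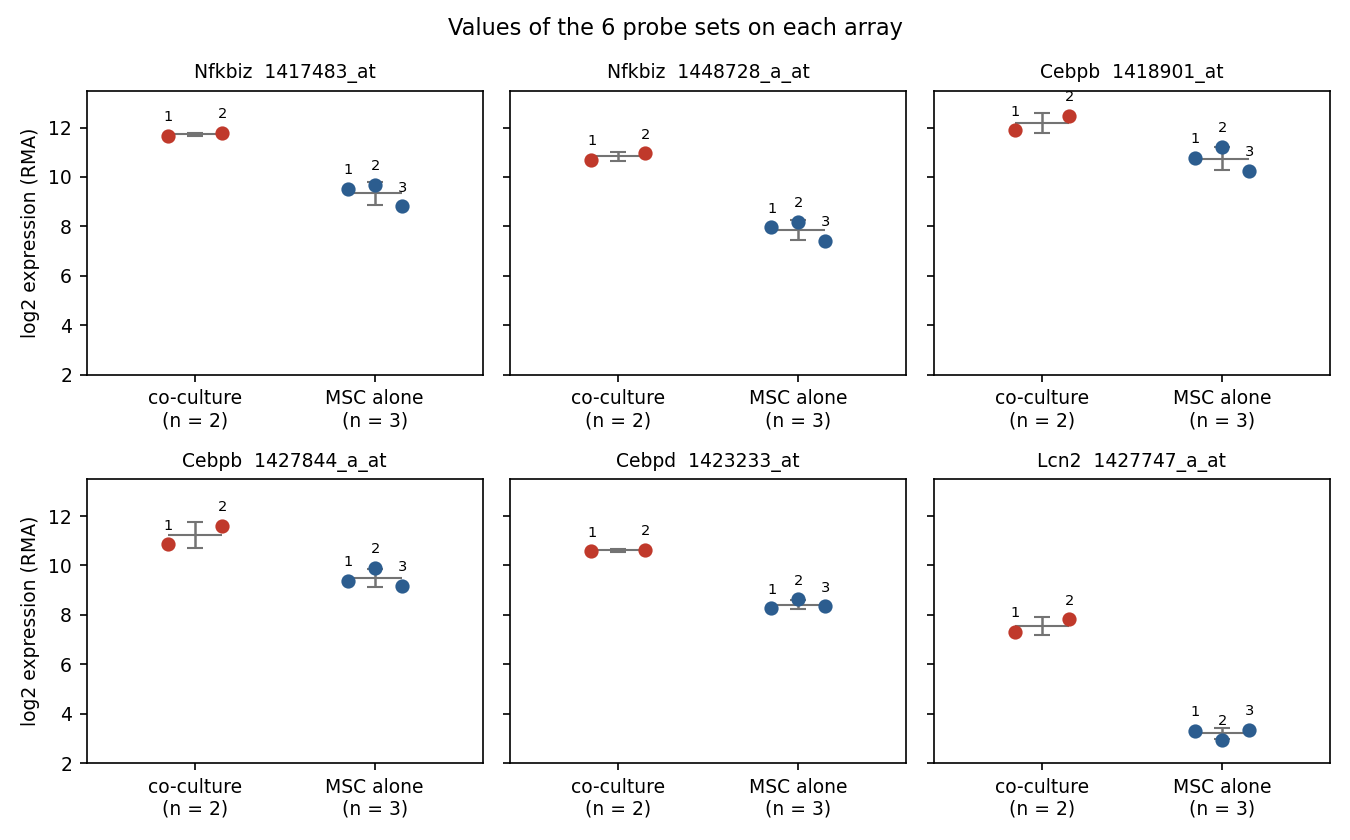
Log2 expression (RMA) of the 6 probe sets on each array, with co-culture on the left (n = 2) and MSC alone on the right (n = 3) of every panel. Points are arrays with their replicate number, and bars are the mean and SD of the group. Every co-culture point lies above every point of MSC alone, and only Lcn2 starts near the lower end of the scale, at 2.95 to 3.35.

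The change of the target was then set against that of each regulator on the same array. Relative to its own mean in MSC alone, Lcn2 stood 4.10 higher in co-culture replicate 1 and 4.62 higher in replicate 2. On the same arrays the brighter Nfkbiz probe set stood 2.33 and 2.44 higher, Cebpd 2.16 and 2.23 higher, and the brighter Cebpb probe set 1.15 and 1.74 higher. The target therefore changed more than each regulator on both co-culture arrays. The levels of different probe sets cannot be compared with each other, so only these changes were.

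Lcn2 minus the brighter Nfkbiz probe set was -4.36 and -3.95 in co-culture, against -6.21, -6.74 and -5.47 in MSC alone. The rise of Lcn2 thus exceeded that of Nfkbiz by 1.98 on the log2 scale by this probe set and by 1.39 by the other one. It exceeded that of Cebpd by 2.17 and those of the Cebpb probe sets by 2.92 and 2.62. In each of the 5 comparisons the co-culture arrays lay above all arrays of MSC alone. An exact permutation test over the 5 arrays, two-sided, has 10 splits and cannot go below p = 0.1. This exact test gave that value for 4 of the regulator probe sets and p = 0.2 for Nfkbiz 1448728_a_at. For the latter, another split of the arrays gave a difference larger in size but of opposite sign. Adjusted over the 5 comparisons by Benjamini-Hochberg, the exact p-values were 0.125 for those 4 probe sets and 0.2 for the remaining one, so none of the differences passed the threshold in a design of this size. Probe sets can also respond to RNA on different slopes, and the size of this contrast in RNA was not tested.

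**Figure D2:**
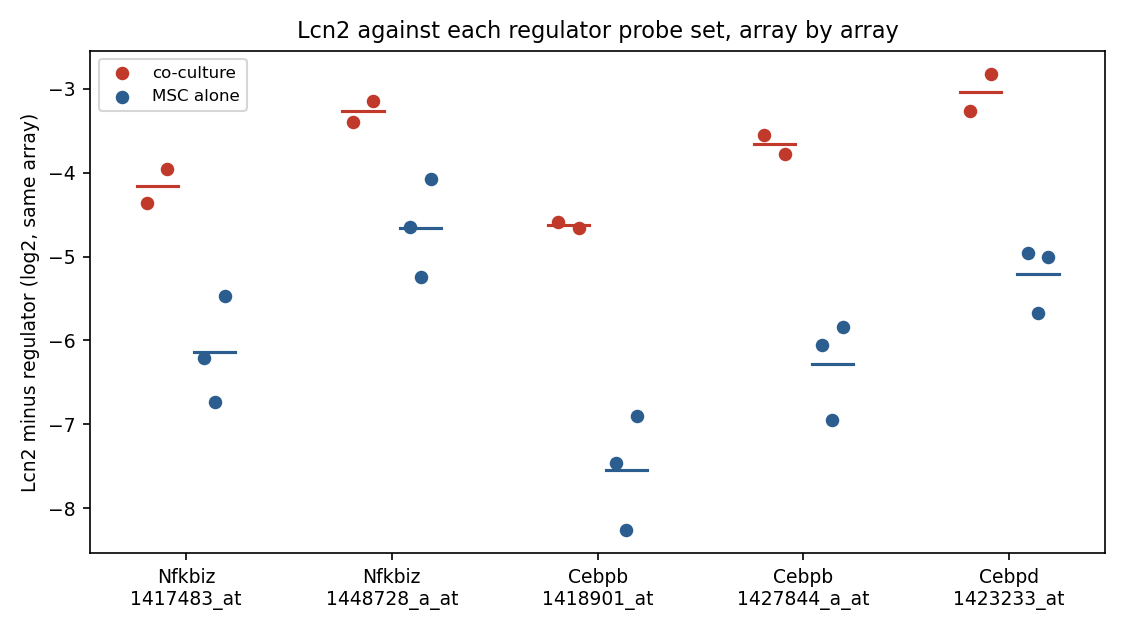
Lcn2 minus each regulator probe set on the same array (log2), with co-culture in red to the left (n = 2) and MSC alone in blue to the right (n = 3). Points are arrays and short lines are group means. In every column both co-culture points lie above the 3 points of MSC alone, by the least for Nfkbiz 1448728_a_at.

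Among the regulators most intervals overlapped. The limma intervals were 1.68 to 3.09 for Nfkbiz 1417483_at, 1.73 to 2.66 for Cebpd and 0.965 to 2.52 for Cebpb 1427844_a_at. The exception was Nfkbiz 1448728_a_at, whose interval of 2.31 to 3.63 lay above that of Cebpb 1418901_at, 0.623 to 2.26. Every other pair of regulator probe sets had intervals that overlapped. The differences between regulators were not themselves tested. The interval of Lcn2 began at 3.78, above the upper bound of every regulator probe set, of which the highest was 3.63. Setting these intervals side by side is not a test, and none of the exact tests of Lcn2 against a regulator passed the threshold.

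Within each group the arrays were read one by one. All 6 probe sets were higher in co-culture replicate 2 than in replicate 1, as were 71.1% of the 1642 rising probe sets. The step was 0.517 on the log2 scale for Lcn2 and 0.591 and 0.745 for the Cebpb probe sets, but 0.106 and 0.265 for Nfkbiz and 0.068 for Cebpd. In these 2 arrays the step of Lcn2 in log2 units was thus closer to that of Cebpb than to those of Nfkbiz or Cebpd. The steps were not scaled to the rises, which were largest for Lcn2 and smallest for Cebpb. This reading comes from a single pair of arrays and cannot be tested.

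In MSC alone the target did not share the order of the regulators. The 5 regulator probe sets were all highest in replicate 2, which was the highest of the arrays of MSC alone in 55.1% of the rising probe sets. The Nfkbiz and Cebpb probe sets, 4 in all, were lowest in replicate 3, which held for 50% of the rising probe sets. Lcn2 was lowest in replicate 2, at 2.95, a pattern found in 13.4% of the rising probe sets, and highest in replicate 3, at 3.35. This order of Lcn2 spans 0.399 on the log2 scale at the low end of the scale, and its order has no test. Too few arrays were available for a correlation between regulators and target.

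**Figure D3:**
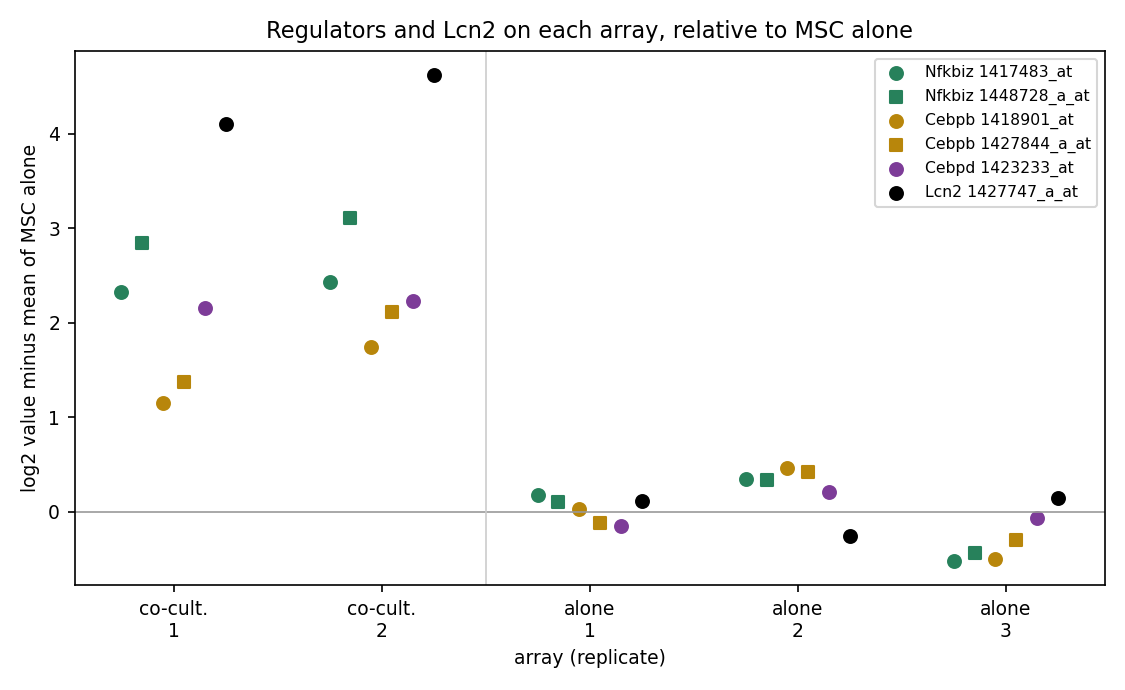
Log2 value of each probe set minus its own mean in MSC alone, for the 2 co-culture arrays and then the 3 arrays of MSC alone. Each point is 1 probe set on 1 array, and squares mark the second probe set of Nfkbiz and of Cebpb. Lcn2 stands highest in both co-culture arrays, at 4.10 and 4.62, and in replicate 2 of MSC alone it lies below 0, at -0.25, where all regulators lie above 0.

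The genes whose profiles over the 5 arrays were most like each member were found by Euclidean distance after each profile was centred on its own mean. The distance depends mostly on the size of the rise, since every gene in the table separates the groups. For Nfkbiz the 5 nearest of the other 2189 named genes were 1110038F14Rik, Itgb7, Tmcc3, Ifi35 and Taldo1, at distances of 0.261 to 0.381. For Cebpd they were Whamm, Csf3, 5430416N02Rik, Gclm and Rnf114, at 0.142 to 0.303. For Cebpb they were Tbx3, Insig2, Malt1, Traf2 and Bri3bp, at 0.087 to 0.239. For Lcn2 they were Ifi207, Gbp8, Mndal, Hcar2 and Gm4951, farther off at 0.655 to 0.839. Cebpd was the 24th nearest gene to Nfkbiz, Cebpb the 160th and Lcn2 the 1036th. Seen from Lcn2, Nfkbiz was the 80th, Cebpd the 92nd and Cebpb the 315th. Seen from Cebpb, Cebpd was the 576th, Nfkbiz the 653rd and Lcn2 the 1750th. Seen from Cebpd, Nfkbiz was the 35th, Cebpb the 212th and Lcn2 the 1036th. The distance between Nfkbiz and Lcn2 was 2.37 in both rankings. A rank thus also depends on how many genes lie near each member.

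The rest of the pathway was read from gene lists, with each gene represented by its brightest probe set. The median difference over all named genes was -0.61 on the log2 scale, and 48.3% of them were higher in co-culture. Each count below covers only the listed genes in the table, which appears to be selected on this comparison. It does not describe the rest of a list, which was not analysed. Of 16 NF-kB and IkappaB family genes 3 were in the table and all 3 rose, the 13 others being not analysed here. Besides Nfkbiz these were Nfkbib, which encodes the cytoplasmic inhibitor IkappaBbeta, and Tbk1, a kinase of innate immune signalling. Nfkbib read 9.43 and 9.80 in co-culture, against 7.76, 7.83 and 7.14 in MSC alone, with the groups apart and replicate 3 again lowest in MSC alone. Its difference was 2.04 ± 0.27 (SE), from a probe set that can bind related transcripts. Tbk1 rose by 0.75 ± 0.19 (SE).

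Of 10 C/EBP family genes and partners 3 were in the table and 3 rose, the third being Cebpg. Cebpg encodes C/EBPgamma, a family member that lacks a classical activation domain and pairs with the others. It read 8.79 and 9.33 in co-culture, against 7.49, 8.01 and 7.42 in MSC alone. Replicate 2 was the higher co-culture array and the highest array of MSC alone, as for Cebpb and Cebpd. The difference was 1.42 ± 0.27 (SE; adjusted p 0.00558 in limma), close in size to that of Cebpb.

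Of 27 secreted and acute-phase genes that respond to NF-kB, IkappaBzeta or C/EBP factors 8 were in the table, the 19 others being not analysed here. All 8 rose, against 48.3% of all named genes, with a median difference of 2.74 with Lcn2 and 2.41 without it. Lcn2 had the largest rise of the 8. Ccl7, a monocyte chemokine, and Nos2, the inducible nitric oxide synthase, rose by 3.68 ± 0.62 and 3.17 ± 0.21 (SE). Lif, a cytokine of the gp130 family, rose by 3.08 ± 0.67 (SE). Without replicate 3 of MSC alone the rise of Ccl7 was 3.03 and that of Lif 2.43. Cxcl1, a neutrophil chemokine, rose by 2.41 ± 0.41 (SE), and its other probe sets rose by 2.60 and 2.13. Csf3, the granulocyte growth factor gene, rose by 2.27 ± 0.21 (SE), and it was also among the genes nearest to Cebpd. Csf2, which encodes GM-CSF, rose by 2.08, or 2.88 without co-culture replicate 1 and 1.28 without replicate 2, and Cfb, complement factor B, rose by 1.31.

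Of 12 feedback regulators 5 were in the table. All 5 rose by their brightest probe sets, with a median of 1.62, but the other probe set of Cyld fell. Zc3h12a and Zc3h12c encode related RNA-binding proteins, and Zc3h12a is known to cleave Nfkbiz mRNA. Zc3h12a read 6.52 and 6.01 in co-culture, against 5.31, 5.23 and 5.17 in MSC alone, so the groups were apart and co-culture replicate 1 was the higher. Zc3h12a rose by 1.03 ± 0.21 and Zc3h12c by 1.82 ± 0.36 (SE). Socs3, an inhibitor of gp130 signalling, rose by 1.95 ± 0.46 (SE), with 2.15 and 2.02 from its other probe sets, and Tnip1, which restrains NF-kB activation, by 1.62 ± 0.31. Cyld, a deubiquitinase, rose by 0.62 ± 0.19 by its brighter probe set, while its other probe set fell by 1.10, so its direction is not settled. Its adjusted p in limma was 0.0654 without replicate 1 of MSC alone and 0.0548 without co-culture replicate 1.

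Of 33 receptors, adaptors and kinases upstream 8 were in the table, 7 higher and 1 lower, with a median of 1.07. The adaptor genes Traf2 and Myd88 rose by 1.54 ± 0.33 and 1.51 ± 0.20 (SE), and Irak2, which carries interleukin and toll-like receptor signals, by 1.04 ± 0.16. The kinase genes Jak2 and Jak1 rose by 1.45 ± 0.26 and 1.10 ± 0.27, and Tnfrsf1a, a TNF receptor gene, and Stat3 by 0.80 ± 0.19 and 0.71 ± 0.16. Map3k7, which encodes the kinase TAK1 that links these receptors to NF-kB, read 6.95 and 6.59 in co-culture, against 8.16, 7.96 and 8.10 in MSC alone. It was the only member of this list to fall, by 1.30 ± 0.19 (SE; adjusted p 0.00349 in limma).

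Of 12 genes for lipocalin-2 receptors and iron handling 4 were in the table, 2 higher and 2 lower. Slc40a1, which encodes the iron exporter ferroportin, read 5.71 and 4.88 in co-culture, against 7.66, 7.23 and 8.57 in MSC alone. It fell by 2.52 ± 0.45 (SE). Slc11a2, the iron importer DMT1, rose by 2.02 ± 0.18 (SE), and by 2.06 in its other probe set. Tfrc, the transferrin receptor gene, rose by 1.01 ± 0.26, and Aco1, which encodes an iron-sensing RNA-binding protein, fell by 0.74 ± 0.20. None of the 9 listed adipocyte genes linked to C/EBP factors was in the table, and they were not analysed here.

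**Figure D4:**
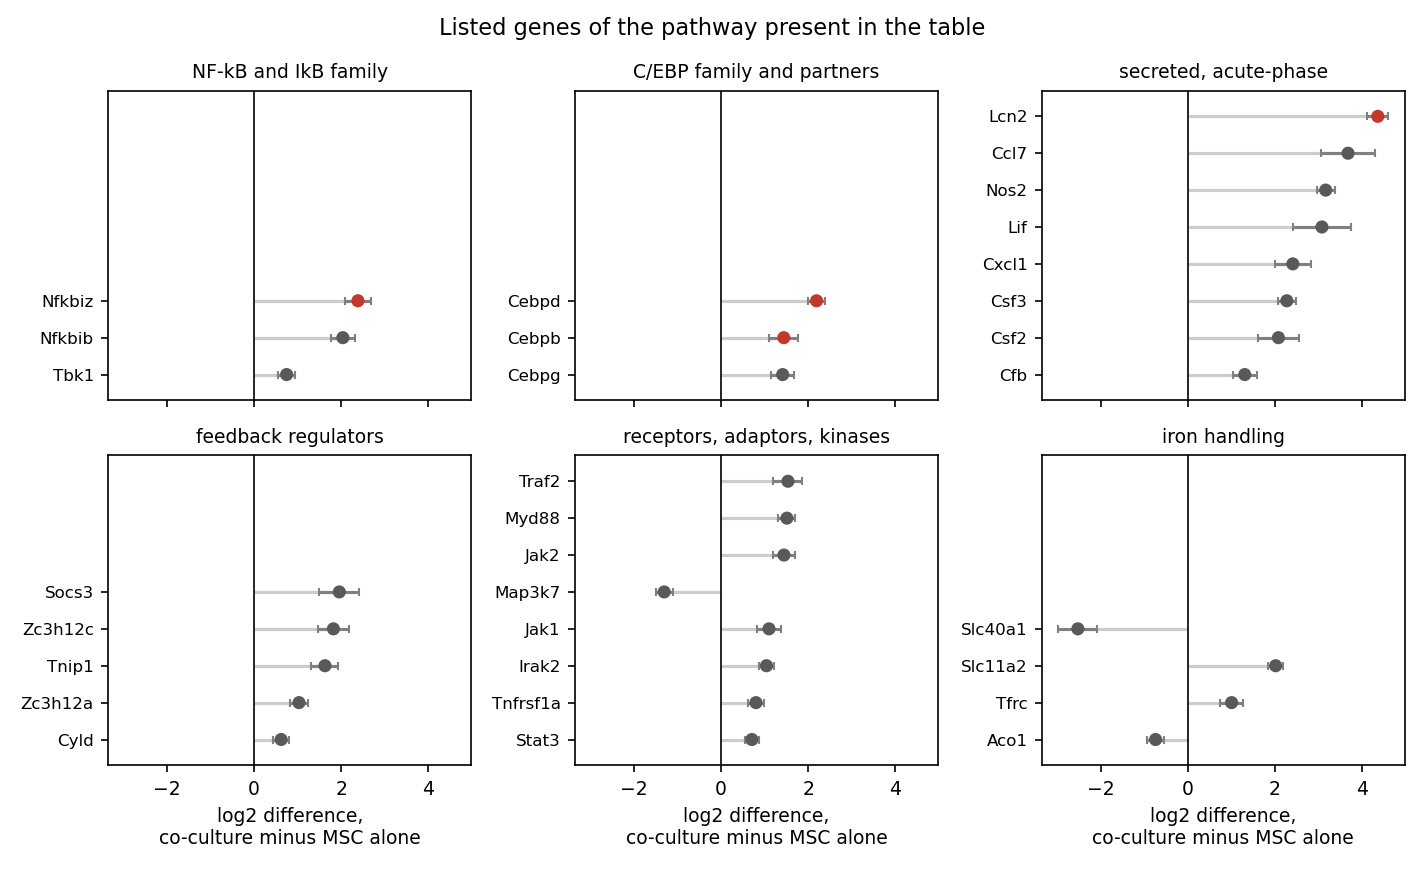
Log2 difference, co-culture minus MSC alone, of the listed genes that were in the table, by list, each from its brightest probe set. Bars are limma's standard errors, and red points are Nfkbiz, Cebpb, Cebpd and Lcn2. Lcn2 leads the secreted genes at 4.36, Map3k7 at -1.30 stands alone below 0 among the upstream genes, and the iron genes lie on both sides of 0.

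Lcn2 is also a neutrophil granule gene, so markers of other cells were read beside it. Of 15 neutrophil markers and 14 T cell markers 0 were in the table, so neither was analysed here. Of 15 macrophage and monocyte markers 2, Mpeg1 and Ctss, were in the table, with a mean log2 value of 8.03 and 7.35 in co-culture replicates 1 and 2, against 3.74, 4.24 and 4.03 in MSC alone. These markers were higher in co-culture replicate 1. All 6 probe sets of the 4 genes were higher in replicate 2, as were 71.1% of the 1642 rising probe sets. The part of the cells that these markers stand for in the rise of Lcn2 was not tested. In bulk RNA, more cells of a type and more RNA per cell cannot be told apart. Of 13 mesenchymal markers 6 were in the table, with mean values of 9.11 and 8.93 in co-culture, against 9.30, 9.19 and 9.22 in MSC alone. Of these, Pdgfra and Vcam1 were higher in co-culture, and Cxcl12, Pdgfrb, Alcam and Cd44 were lower.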

How the data were processed

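The authors made the deposited log2 values from Affymetrix arrays with RMA, in a version not named, per the submitters' processing notes. The table holds 3373 probe sets by a rule not given in the sources used here. The platform annotation gave 1 symbol for 3013 probe sets, several for 69 and none for 291; 3010 matched RefSeq (GRCm38.p6) and 0 symbols changed. All 5 arrays were fitted with limma 3.58.1 under R 4.3.3 (lmFit, eBayes, two-sided, no covariates, no filter), adjusted by Benjamini-Hochberg over all probe sets at a threshold of 0.05. The fit was tested on simulated data in which most probe sets had no difference between the groups. That check does not cover a table in which all probe sets separate the groups. With 5 arrays the number of arrays limits the precision. Lcn2 minus each regulator was tested by exact permutation. Each array is a separate repetition in the labels; p-values measure the spread between these arrays only. The members, the lists and the tests were chosen with earlier results of these data known. The named genes are all members, the 6 genes of each list with the largest difference, and the 5 nearest profiles per member. Csf2, Cfb, Tnfrsf1a and Stat3 were added after their values were seen. Promoter windows from RefSeq cover the 250 bases before each start. Alternatives are given at the end.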

Additional observations from a re-analysis of the deposited data

How the results depend on the processing

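All 6 probe sets stayed higher in co-culture with an adjusted p under the threshold in these alternatives: each array of MSC alone left out, the replicate number as a block, arrays centred on their medians, trended or no moderation, array weights and, except for Lcn2, removal of the dimmest 25% of probe sets, which drops Lcn2 itself. They also stayed higher with either co-culture array left out. Nearly all of the table did the same, so passing says little about these 6. Of the 3373 probe sets, 3194 to 3371 passed in either direction without an array of MSC alone. With the block 3365 passed, with centring 3315 and without moderation 3281. With arrays left out one at a time, Lcn2 ranged from 4.10 to 4.62, Nfkbiz from 2.12 to 2.55 and from 2.75 to 3.14, Cebpd from 2.12 to 2.30 and Cebpb from 1.15 to 1.74 and from 1.37 to 2.11. The highest adjusted p with an array left out was 0.0427 in limma, for Cebpb 1418901_at, and without moderation of the spread that of the same probe set was 0.0457. With the number of tests in the adjustment raised 15 times, 205 higher and 210 lower probe sets passed, 415 in all. Under that adjustment the Cebpb differences of 1.44 and 1.74 no longer passed, with adjusted p = 0.118 and 0.0781, while Lcn2, Cebpd and both Nfkbiz probe sets did. Centring the arrays on their medians adds 0.16 to each difference. Only 2 replicate numbers are shared between the groups, and the labels do not say that a number pairs arrays. With the replicate block the differences were 4.44 for Lcn2, 2.12 and 2.75 for Nfkbiz, 2.16 for Cebpd and 1.19 and 1.59 for Cebpb. These are the same differences as without replicate 3 of MSC alone, which is the only array in its block. The deviations of same-numbered arrays from their group means correlated at 0.22 and 0.32 over probe sets. The excess of Lcn2 over the regulators stayed above 0 with arrays left out one at a time, between 1.10 and 3.24. Centring cannot change this excess, since it shifts all probe sets of an array alike. The block gave the same excess as leaving out replicate 3 of MSC alone, so neither is a separate check of it. Low values without detection calls limit the precision of the Lcn2 fold.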
